A study of Trichechus manatus latirostris with 11 samples.

Results

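The Krüppel-like factors (KLFs) described here were the genes of a fixed list of 10, KLF2, KLF3, KLF4, KLF5, KLF6, KLF7, KLF10, KLF11, KLF12 and KLF13, whose transcript record had a row in the deposited gene table. The record was matched to its TriManLat1.0 RefSeq symbol without the version number. In this way 8 of the 10 symbols were found, each with 1 row among 15298, and KLF5 and KLF13 were not analysed here. The measurements come from RNA-seq of the buffy coat (the leukocyte fraction of spun blood) of adult Florida manatees (Trichechus manatus latirostris). The red tide group comprised 4 animals treated at the zoo in Tampa for illness during a red tide, a bloom of algae that release brevetoxins. Of these animals, 2 were sampled on arrival and 2 after a week of treatment. The control group comprised 7 animals, of which 4 came from Crystal River, 2 from the Indian River Lagoon in Brevard County and 1 was recovering from pneumonia at the same zoo. The sampling dates of the groups did not overlap, and all but 1 of the controls came from places other than the zoo, so that date and, for the most part, place cannot be told apart from red tide exposure. The same holds for illness and care at the zoo, since the paper describes the controls other than the pneumonia case as healthy. Handling may differ as well. The paper describes immediate freezing for the red tide buffy coats and a preservative, RNAlater, for samples collected in the field. All libraries were depleted of ribosomal and globin RNA.

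KLFs are zinc finger transcription factors that bind GC-rich and CACCC-type sequences through a conserved C-terminal zinc finger domain, while their divergent N-terminal parts recruit coactivators or corepressors. In white blood cells, KLF2 is known for keeping T cells quiescent and for their traffic through lymphoid organs, and KLF4 for the differentiation of monocytes. KLF6 is known from activated macrophages, KLF10 and KLF11 are products of TGF-beta inducible early genes, and KLF3 and KLF12 are repressors that recruit CtBP proteins.

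For each row the deposited table gives a mean normalized count (reads counted for the gene divided by the size factor of the library, which scales for depth) over 4 libraries and over 7 libraries. Those numbers equal the sizes of the red tide and control groups, and in the title of the table red tide comes before a group of 7, but the columns themselves name no group. The directions that the study's text gives for red tide against control are the reverse of those obtained when the mean of fewer libraries is read as red tide, for instance for the neutrophil genes MMP9 and CXCR2. Which exposure a higher mean belongs to is therefore not settled here, values are named by their number of libraries, and no difference below is to be read as a direction of red tide against control. The table holds no value of a single animal. Every read adds a set amount to such a mean, in inverse proportion to its library's size factor, and the reads of single libraries could be recovered for 4-library means of up to 80 (9632 of 9634 rows) and for 7-library means of up to 6 (4457 of 4505 rows). A recovered library is known by its size factor only, and not by its animal. The size factors were 1.56, 1.03, 0.620 and 0.372 in the group of 4 and ranged from 0.702 to 1.73 in the group of 7, so the group of 4 holds the library with the smallest size factor. Recovered values exist for 4 KLF genes in the 4 libraries (KLF4, KLF7, KLF10 and KLF11) and for 2 of them in all 11 (KLF10 and KLF11). For KLF2, KLF3, KLF6 and KLF12 the authors' means stand alone, and these genes were not tested here, since the authors' own p-values were not used.

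The mean of the 4 libraries was the higher one for all 8 KLF genes, although KLF2, KLF7 and KLF12 fell on the other side when ratios were centred on ribosomal protein genes. The ratio of the means was at least 2 for 3 of the 8 genes (37.5%), namely KLF10, KLF11 and KLF4, and for none in the other direction. Among all rows, 23.9% had a 4-library mean at least 2-fold higher and 10.4% a 7-library mean at least 2-fold higher. With rows of an overall mean of at least 10 alone, these shares were 12.3% and 9.59%. At a limit of 1.5-fold KLF6 joined the 3 genes, against 33.8% and 20.2% of all rows in the respective directions, and at a limit of 4-fold KLF10 and KLF11 remained, against 12% and 2.27%. On the log2 scale the ratio (4 libraries over 7) had a median of 0.67 among the 8 KLF genes and of 0.14 among all rows, and 56.4% of all rows had a ratio above 1. The 3 genes past 2-fold were also the 3 most weakly counted, each with an overall mean between 5 and 50. In that range 24.6% of rows were at least 2-fold higher in the 4-library mean and 11.4% in the 7-library mean, and below it, where no KLF gene lay, 51.4% and 12.2%. None of the 5 KLF genes with an overall mean of 50 or more passed 2-fold, where 8.57% of rows with a mean of 50 to 500 and 9.75% of rows with a mean of 500 or more did so in this direction, and 9.63% and 6.71% in the other. KLF6 lay nearest below the 2-fold limit, and KLF4 nearest above it.

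**Figure D1:**
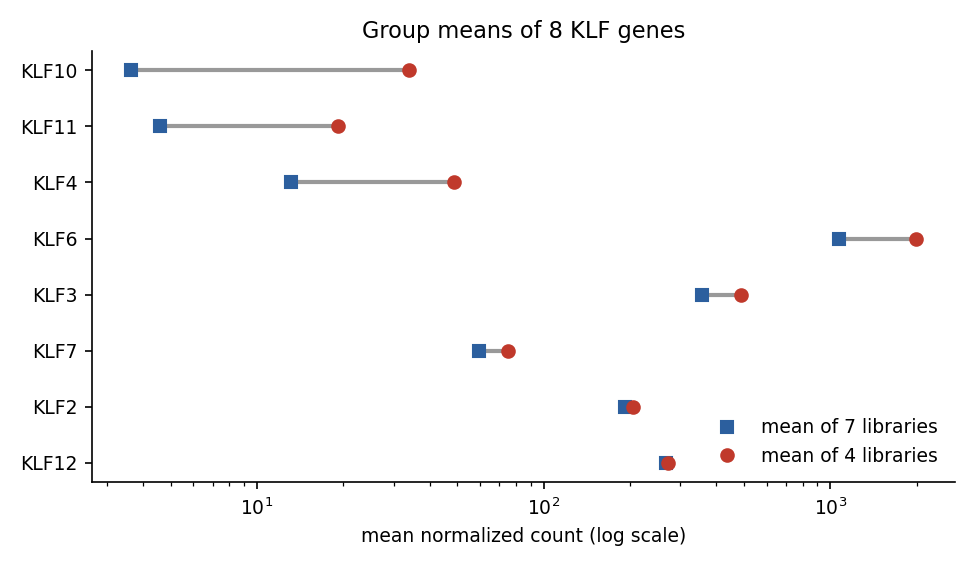
Mean normalized count of the 8 KLF genes on a log axis, with squares for the mean of 7 libraries, circles for the mean of 4 libraries and a line joining them. The distance is longest for KLF10, whose means were 3.65 and 34.0, while the symbols of KLF12 and KLF2 nearly coincide.

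**Figure D2:**
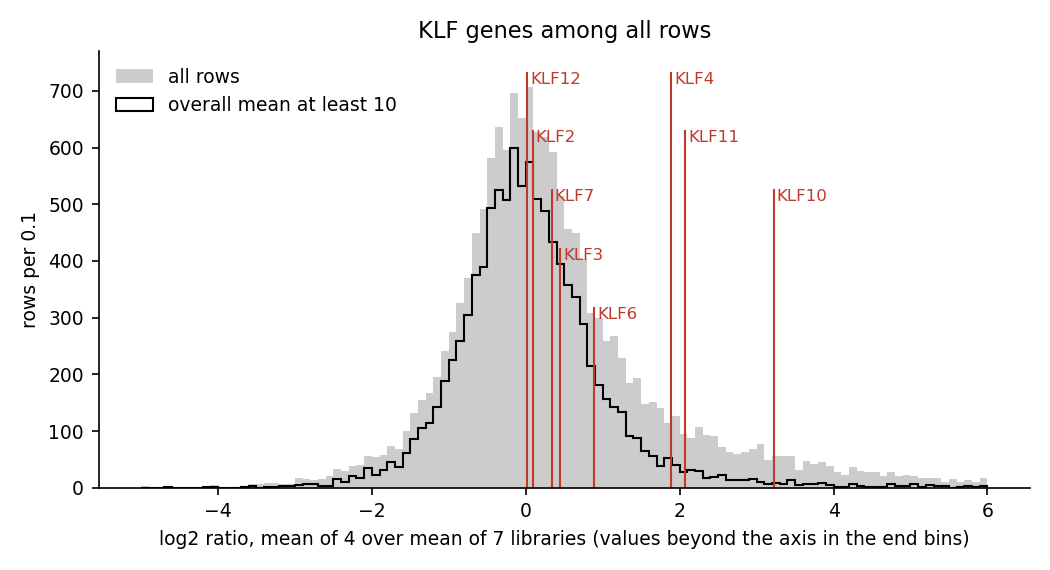
Distribution of log2 ratios (4-library mean divided by 7-library mean) for all 15298 rows (grey) and for the 10225 rows with an overall mean of at least 10 (black outline), as rows per bin, with the 8 KLF genes as vertical lines. KLF12, KLF2, KLF7 and KLF3 lie in the centre of the distribution, and KLF4, KLF11 and KLF10 in its right flank.

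KLF10 (XM_004370716.1), whose product represses transcription downstream of TGF-beta, showed the widest difference of the 8 genes. Its normalized counts in the 4 libraries, from the largest size factor to the smallest, were 42.98, 26.3, 37.1 and 29.6, from 67, 27, 23 and 11 reads. In the 7 libraries they ranged from 0 to 7.24 with a median of 3.41, and the 7 libraries together held 31 reads. The groups did not overlap, and the lowest of the 4 was more than 3 times the highest of the 7. The library of the 7 without a KLF10 read allows up to 2.52 normalized counts at its depth, counting 3 reads as the limit. The means were 34.0 ± 7.50 (SD, n = 4) and 3.65 ± 3.06 (SD, n = 7), a 9.32-fold difference (two-sided exact permutation test, p = 0.00606, which is the lowest value possible with 330 splits). Complete separation in this direction was found in 2.79% of the 4439 rows with reads in all 11 libraries and in 8.9% of the 899 of these with an overall mean of at least 5. The opposite separation was found in 0.0676% of the 4439. The limits of recovery, 80 and 6, favour rows of this direction. KLF10 could be tested only because its mean over the 7 libraries was below 6. Entry to the test thus depended on the grouping itself, and the p-value describes the order of the libraries without being evidence of a difference. The Benjamini-Hochberg adjusted exact permutation p over the 4439 rows was 0.212. This was the smallest value reached, and all rows with the lowest possible p share it, ATF3 and TGFB2 among them. With any library left out the fold of KLF10 lay between 7.99 and 11.2. Of all rows, 5.92% had a higher ratio.

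KLF11 (XM_004373067.1), the closest paralog of KLF10 and likewise a TGF-beta inducible repressor, differed less evenly. In the 4 libraries its normalized counts were 10.3, 7.79, 12.9 and 45.7, from 16, 8, 8 and 17 reads. In the 7 libraries they were 0, 14.4, 7.55, 0, 3.61, 3.62 and 2.85 in the same order of size factor, from 41 reads in all. The highest of the 4 stood far above the other libraries, and the highest of the 7 exceeded all but that library. The libraries without a read allow up to 1.73 and 2.56 normalized counts. The means of 19.2 ± 17.8 (SD, n = 4) and 4.57 ± 5.03 (SD, n = 7) differed 4.19-fold (two-sided exact permutation test, p = 0.0364, with 0.326 after Benjamini-Hochberg adjustment over the 4439 rows). An exact permutation p below 0.05 was reached by 14.9% of the 4439 rows, and by 37.2% of the 899 rows with an overall mean of at least 5. Like KLF10, KLF11 could be tested only because its 7-library mean lay below the limit of recovery, so its p-values are descriptive. The exact permutation p stayed below 0.05 with the library of size factor 1.53 or 1.19 of the 7 left out, and was 0.05 to 0.1 with any of the other 9 left out. Without the library of size factor 0.372 the fold of KLF11 was 2.26 (exact permutation p = 0.1), and without the library of size factor 1.53 in the group of 7 it was 6.52. The same 0.372 library was the highest of the 4 in 36.0% of the 4975 rows with a 4-library mean between 10 and 80. KLF10 was the more even of the pair, with a coefficient of variation of 22.1% among the 4 libraries, against 93.0% for KLF11 and a median of 52.5% over those rows.

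**Figure D3:**
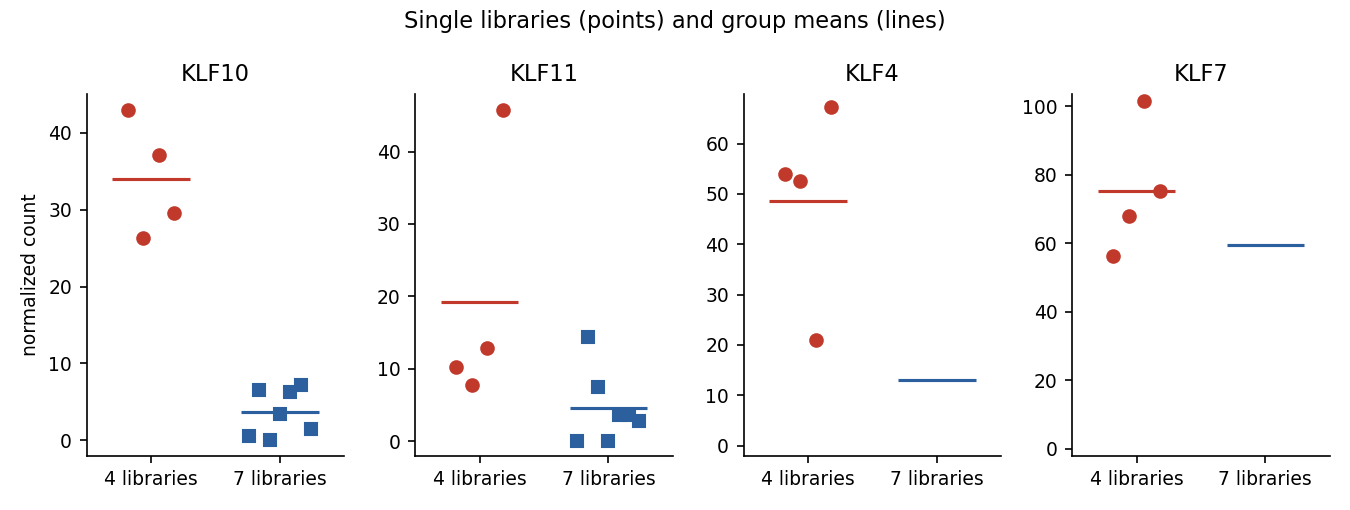
Normalized counts of single libraries (points) and group means (horizontal lines) for KLF10, KLF11, KLF4 and KLF7, each on its own axis from about 0. For KLF10 the 4 libraries do not overlap the 7, for KLF11 they do, and for KLF4 and KLF7 the 7 libraries are known by their mean only.

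Of 12 genes of the TGF-beta pathway, which lies upstream of KLF10 and KLF11, 10 had a row, in 11 records. The 4-library mean was at least 2-fold higher in 5 of the 11 records, the 7-library mean in none, and the median log2 ratio was -0.02. These 5 records belonged to 2 ligands and to 3 inhibitors of the signal. SKIL, a corepressor of SMAD proteins, had means of 338 over the 4 libraries and 41.9 over the 7, an 8.06-fold difference. TGIF1, another SMAD corepressor, had means of 114 and 17.8, and SMAD7, the inhibitory SMAD, had means of 316 and 124. The ligand genes among these 5 records were TGFB3, with means of 34.1 and 13.6, and TGFB2, with 16 reads in the 4 libraries and 1 in the 7. The ligands did not all go this way, since the most strongly counted ligand gene of the list had the higher mean in the 7 libraries, below 2-fold. The receptor and signal-carrying SMAD genes with a row were all below 2-fold, with log2 ratios of -0.02 for TGFBR1, -0.19 for SMAD2 and -0.21 for SMAD3. The ratio of SMAD3 rests on 1 library, that of size factor 0.372. Normalized counts of SMAD3 in the 4 libraries were 10.9, 7.79, 11.3 and 121, from the largest size factor to the smallest. Its 7-library mean was 43.7. Both records of the receptor gene TGFBR2 had the higher mean in the 7 libraries, with log2 ratios of -0.99, close to the 2-fold limit, and -0.59.

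KLF4 (XM_004372193.1), a factor that promotes monocyte differentiation, had normalized counts of 53.9, 52.6, 21.0 and 67.3 in the 4 libraries, from 84, 54, 13 and 25 reads. The library of size factor 0.620 was the low one, at less than the other 3 by more than 2-fold. The mean over these libraries was 48.7 ± 19.6 (SD, n = 4), and the authors' mean over the 7 libraries was 13.1, which gives a 3.71-fold difference. The reads of the 7 libraries could not be settled, since 270 combinations of whole reads gave the deposited mean, with 87 to 143 reads in all. In these combinations at most 3 of the 7 libraries exceeded the lowest of the 4, and in 6 of the 270 none did. At most 1 exceeded the next lowest, a bound that the 7-library mean sets by itself. A two-sided exact permutation test gave p-values from 0.00606 to 0.0424 over the 270 combinations. With any library left out, the highest exact permutation p over the combinations lay between 0.05 and 0.117, so it was below 0.05 only with all 11 libraries. These values are unadjusted, since KLF4 is not among the 4439 rows adjusted together, where the smallest adjusted exact permutation p was 0.212. Of the 899 of those rows with an overall mean of at least 5, 37.2% had an exact permutation p below 0.05. Omitting single libraries of the 4 gave folds of KLF4 from 3.24 to 4.41. Of all rows, 12.9% had a higher ratio than KLF4.

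KLF6 (XM_004390024.1), an immediate early factor in many cells, had authors' means of 1982 over the 4 libraries and 1073 over the 7, a 1.85-fold difference. These means stand for at least 2948 and 5276 reads. The log2 ratio of 0.88 has 95% limits no wider than 0.82 to 0.95 from counting error alone. The spread between animals is unknown for KLF6. Of all rows, 26.1% had a higher ratio than KLF6.

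Among 6 genes known as targets or partners of KLF6 or KLF4, 5 had a row. The 4-library mean was at least 2-fold higher in 2 of them, the 7-library mean in none, and the median log2 ratio was -0.26. CDKN1A, a cell cycle inhibitor that KLF4 and KLF6 are known to activate, had normalized counts of 60.9, 28.2, 85.4 and 59.2 in the 4 libraries. Its means were 58.4 and 8.10, a 7.21-fold difference. THBD, the anticoagulant thrombomodulin, had means of 10.0 and 14.8. Of 8 genes that act upstream of KLF2 and KLF4, the MEK5, ERK5 and MEF2 pathway and the FOXO factors, 5 had a row in 6 records, with a median log2 ratio of 0.13. At least 2-fold differences were found in 1 record in each direction, both weakly counted. A record of MEF2C had 11 reads in the 4 libraries and 4 in the 7, and MAP2K5 had 1 and 5. MEF2D had means of 22.8 and 14.7, MEF2A of 37.8 and 43.1, and the kinase gene MAPK7 of 23.0 and 24.6.

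KLF2 (XM_004384517.1), the quiescence factor of T cells, had authors' means of 204 over the 4 libraries and 192 over the 7. The log2 ratio was 0.09, with 95% limits no wider than -0.10 to 0.28 from counting error alone, which at their widest include no difference. The genes that KLF2 is known to sustain in lymphocytes lay close to it. Of the 5 on the list 4 had a row, none passed 2-fold in either direction, and the median log2 ratio was -0.12. S1PR1, the receptor through which T cells leave lymph nodes and a direct KLF2 target, had means of 1742 over the 4 libraries and 2134 over the 7. The cytokine receptor gene IL7R had means of 3424 and 3255.

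KLF12 (XM_004371422.1), a CtBP-recruiting repressor, had authors' means of 271 and 266, the smallest difference of the 8 genes. Its log2 ratio of 0.02 had counting limits of -0.14 and 0.18, and 55.4% of all rows had a higher ratio. KLF3 (XM_004384676.1), the other CtBP-recruiting repressor, had authors' means of 488 over the 4 libraries and 357 over the 7. The difference was 1.37-fold, and the log2 ratio of 0.45 had counting limits of 0.33 and 0.58. For KLF12 and KLF3 the spread between animals is unknown.

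KLF7 (XM_004378272.1), a broadly expressed member, had normalized counts of 56.4, 68.1, 101.5 and 75.3 in the 4 libraries, from 88, 70, 63 and 28 reads. The mean was 75.4 ± 19.1 (SD, n = 4), and the authors' mean over the 7 libraries was 59.6. The library of size factor 1.56 lay below the mean of the 7 and the other 3 above it, so that the difference of 1.26-fold was smaller than the SD among the 4 libraries. Without the library of size factor 0.620 the fold was 1.12. That library was the highest of the 4 for KLF7 and the lowest for KLF4, while the highest for KLF10 was the library of size factor 1.56 and for KLF11 that of 0.372. Thus each of the 4 genes with recovered reads had another order of the 4 libraries.

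In the RefSeq table of TriManLat1.0 the genes with a difference past 2-fold are short or of moderate size, with spans, introns included, of 4972 bases for KLF4, 6901 for KLF10 and 17339 for KLF11. Spans among the other members run from 3123 bases for KLF2 to 527148 for KLF12. The table names no chromosome or scaffold, so positions are not given. Transcript lengths were not used here, and levels of different KLF genes were for this reason not compared with each other.

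Among 16 further KLF and SP genes, the rest of the same zinc finger family, 7 had a row. The 4-library mean was at least 2-fold higher in 4, the 7-library mean in none, and the median log2 ratio was 1.41. KLF9, a factor induced by glucocorticoids and thyroid hormone, had means of 133 over the 4 libraries and 32.4 over the 7, a 4.10-fold difference. KLF15, which is likewise induced by glucocorticoids, had normalized counts of 25.0, 20.4, 38.7 and 40.4 in the 4 libraries. The 7-library mean of KLF15 was 8.16, below the lowest of the 4 libraries. SP3, a ubiquitous activator or repressor that binds the same GC boxes, had means of 69.3 and 66.0, and SP4 of 490 and 616. The remaining genes past 2-fold, SP7 and KLF1, had means below 5 in both groups.

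The proteins that KLFs recruit showed no difference of this size. Of 11 corepressor and coactivator genes 7 had a row, in 8 records, and none passed 2-fold in either direction, with a median log2 ratio of -0.06. CREBBP, a histone acetyltransferase, had means of 17.6 over the 4 libraries and 30.3 over the 7, its paralog EP300 of 1114 and 1365, and the corepressor SIN3B of 189 and 263. Of 8 ubiquitin ligase genes that have been linked to the turnover of KLF proteins, 7 had a row in 9 records. At least 2-fold differences were found in 1 record in each direction, a record of FBXW7 with means of 14.1 and 4.86 and 1 of BTRC with 2.75 and 5.71, and the median log2 ratio was 0.28. SMURF2 had means of 1574 and 823, WWP1, a ligase for KLF2 and KLF5, of 559 and 707, and the FBXW7 record with the higher mean of 34.1 and 23.4.

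KLF4, KLF6 and KLF10 are also known as genes that respond within minutes to growth factors and stress, and the classical immediate early genes differed in the same direction. Of 18 such genes 13 had a row. The 4-library mean was at least 2-fold higher in 11 of the 13, the 7-library mean in none, and the median log2 ratio was 2.59, against 0.14 over all rows. Their summed means were 25311 over the 4 libraries and 6225 over the 7. NR4A2, a nuclear receptor, had means of 768 and 62.3, and JUN, an AP-1 subunit, of 2228 and 210. ATF3, a stress factor, had normalized counts of 37.8, 21.4, 24.2 and 96.8 in the 4 libraries and of 0 to 11.1 in the 7. As for KLF10, the groups did not overlap for ATF3. Whether the KLF differences come with those of the immediate early genes in the same animals was not tested.

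**Figure D4:**
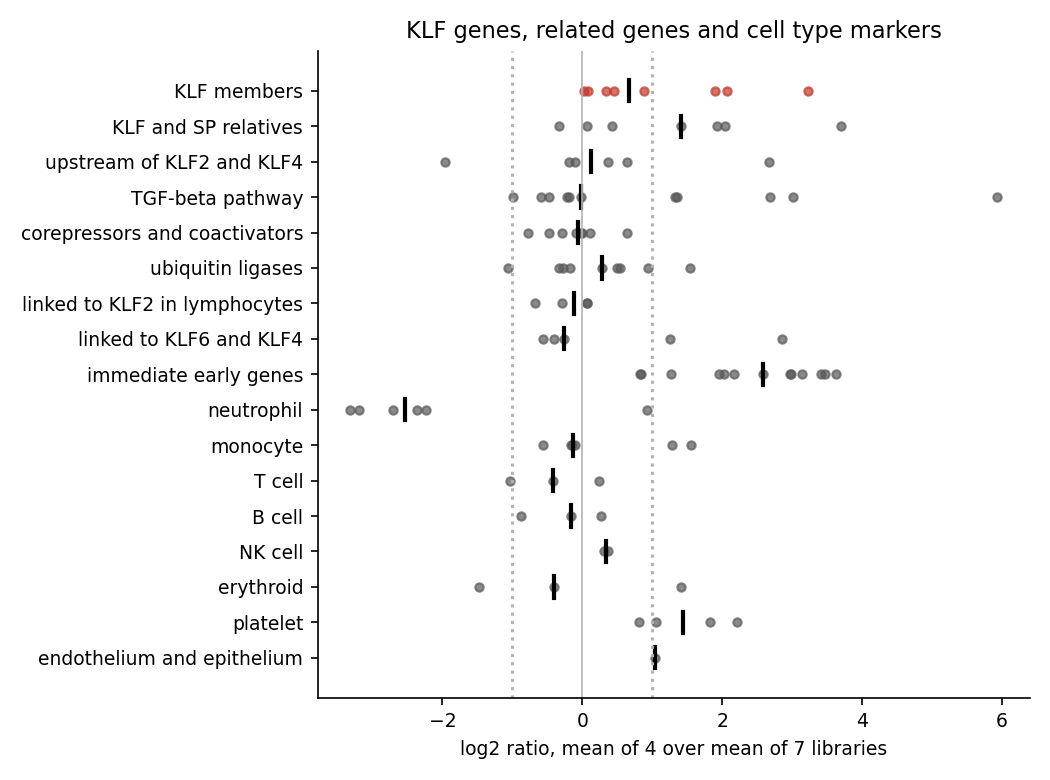
Log2 ratios (4-library mean divided by 7-library mean) for the KLF genes, for 8 lists of related genes and for 8 lists of cell type markers, with 1 point per record, a black bar at the median and dotted lines at 2-fold. Immediate early genes lie on the right at a median of 2.59, neutrophil markers on the left at -2.53, and the KLF genes spread from 0.02 to 3.22.

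Cell type markers differed between the means as well. In bulk RNA, fewer cells of a type and less RNA per cell cannot be told apart. Of 6 neutrophil marker genes with a row, 5 were at least 2-fold higher in the 7-library mean, with summed means of 1982 over the 4 libraries and 11742 over the 7. MMP9 had means of 76.5 and 762, CXCR2 of 65.4 and 598 and S100A9 of 835 and 5429. Of 4 platelet genes with a row, 3 were at least 2-fold higher in the 4-library mean, with summed means of 8859 and 2997. ITGB3 had means of 4725 and 1019, ITGA2B of 3996 and 1919 and GP9 of 66.1 and 18.6. Monocyte markers, the closest to KLF4, had summed means of 2488 over the 4 libraries and 2820 over the 7. In 2 of their 6 records the 4-library mean was at least 2-fold higher. A record of VCAN had means of 61.6 and 25.3, while the other record of VCAN, which was more strongly counted, had means of 205 and 228. LYZ had means of 1243 and 1839.

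Lymphocyte markers, the closest to KLF2, differed less than those of neutrophils and platelets. Their median log2 ratios were -0.42 for T cells, -0.17 for B cells and 0.34 for NK cells. Of 3 T cell genes with a row 1 was at least 2-fold higher in the 7-library mean, and the sums were 385 over the 4 libraries and 510 over the 7. CD4 had means of 145 and 297, LCK of 21.0 and 28.1 and CD28 of 219 and 185. The 3 B cell genes with a row, PAX5, BLK and MS4A1, summed to 770 and 771, with means of 24.2 and 44.5 for PAX5, 376 and 311 for BLK and 370 and 415 for MS4A1. The 2 NK cell genes with a row summed to 29.6 and 23.6, and NCAM1 had means of 22.6 and 18.2. Erythroid genes summed to 186 and 487, with means of 168 and 467 for ALAS2 and of 13.9 and 18.5 for SLC4A1. Of 8 endothelial and epithelial genes only CDH1 had a row, with means of 11.6 and 5.62. The part of cell composition in the KLF differences was not tested.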

How the data were processed

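RNA-seq was made of buffy coats from 4 manatees of the red tide and 7 of the control group, as the sample labels assign them. The authors trimmed reads with Cutadapt, mapped them to TriManLat1.0 with Bowtie2, removed duplicates and counted uniquely mapped reads per gene sequence; for the counting program, the name is not given in the sources used here. As deposited, the signal is a mean normalized count (the DESeq size factor of each library being the divisor), which the authors gave for all libraries together and for each group. Other deposited columns hold the authors' own fold changes, p-values and adjusted p-values and were not used. Unused per-sample columns numbered 0.

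Weights of 4 and 7 on the group means gave the overall mean in all 15298 rows. What 1 read is worth in each library was read from the lowest means (784 values below 4 over the 4 libraries, 1063 below 1.5 over the 7), and whole reads were then searched within 1.2 times the rounding error of the deposited value. The search and the test were tested on simulated data. Intervals and limits of 3 reads cover counting error only. Replicates are separate animals, but a recovered library is not linked to one. The total depth of a library cannot be had from group means.

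Ratios were taken between the means without an added constant. Single genes with recovered reads in all libraries were compared by a two-sided exact permutation test over 330 splits, with Benjamini-Hochberg adjustment over 4439 rows. Rows entered this test through limits that differ between the groups, so its p-values are descriptive. The planned count model could not be fitted to group means. Records were matched to RefSeq symbols for 10080 rows. The test of KLF4 over all combinations was added after the data had been seen. All members were named, and from each list the 3 records with the largest ratio among those with an overall mean of at least 10, plus KLF1, SP1 and SP3; other genes named were chosen after their values were seen, and 3 genes of the lists are counted but not reported here by name. The members and lists were chosen with earlier results of these data known. Python 3.11.15, numpy 2.4.6 and scipy 1.17.1 were used.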

Additional observations from a re-analysis of the deposited data

Results flagged for a closer look

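KLF11 was singled out in 1 of the 4 libraries. Its normalized count of 45.7 in the library of size factor 0.372 was separated from the next of the 4 by a gap of 0.865 of the whole range, above the critical value of 0.829 for 4 samples. The check was made for 6 sets of libraries, KLF4, KLF7, KLF10 and KLF11 in the 4 and KLF10 and KLF11 in the 7, and chance alone marks about 1 in 20 of such sets. The value rests on 17 reads in the library with the smallest size factor.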

How the results depend on the processing

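The number of KLF genes past 2-fold, 3 of 8, was 4 at a fold of 1.5 and 2 at a fold of 4, and stayed at 3 with a pseudocount of 1, with centring on rows with an overall mean of at least 10 and with centring on ribosomal protein genes. The share of all rows at least 2-fold higher in the 4-library mean fell to 12.3% among rows with an overall mean of at least 10, because weak rows were left out, and was 12% at a fold of 4. In the other direction it was 20.2% at a fold of 1.5 and 2.27% at a fold of 4. Ribosomal protein genes had a median log2 ratio of 0.40, and centring on them lowered all 8 KLF genes by this same amount. For the 5 most strongly counted genes the centred ratio lay below the limits from counting error. It was -0.38 for KLF12, -0.31 for KLF2, -0.06 for KLF7, 0.05 for KLF3 and 0.49 for KLF6. The more weakly counted KLF4, KLF10 and KLF11 stayed within their wider counting limits, taken at their widest, so the split follows the number of reads. Without the library of size factor 0.372 the log2 ratio of KLF11 was 1.17, below its lower counting limit of 1.27. The rest of the 62 alternative ratios of KLF genes stayed within their counting limits, which leave out the spread between animals. With 1 library left out, the exact permutation p of KLF10 stayed below 0.05, that of KLF11 ranged from 0.00952 to 0.1, and the highest of KLF4 from 0.05 to 0.117. Of the 11 single libraries, 9 ended the call of KLF11 when left out, and each took the highest p of KLF4 to 0.05 or above. With 3 against 7 libraries no exact permutation p can be below 0.0167. With a tolerance 3 times wider, 2 combinations of reads gave the 7-library mean of KLF11. No paired analysis was possible because the columns carry no replicate number. Depth limits KLF10 and KLF11 most, with 31 and 41 reads over the 7 libraries.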

Other observations

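KLF4 and the monocyte and macrophage gene CD68 kept almost the same proportion in the 4 libraries. CD68 had normalized counts of 75.7, 75.9, 32.2 and 99.5, from the largest size factor to the smallest, and the quotient of KLF4 over CD68 was 0.712, 0.692, 0.650 and 0.676. CD68 itself had nearly equal group means, 70.8 over the 4 libraries and 76.4 over the 7, so that the quotient of the 7-library means was 0.172. CD68 was chosen after its values were seen, from the monocyte markers, and 4 libraries allow no test of the relation. The other monocyte record with recovered reads, of VCAN, kept no such proportion. Its normalized counts were 62.2, 93.5, 37.1 and 53.8 in the same order. KLF4 exceeded it only in the library with the smallest size factor, at 67.3. Where CD68 was lowest, the quotient rests on 13 reads of KLF4 and 20 of CD68.

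KLF1, the master regulator of red cell development, was close to the detection limit. Its reads in the 4 libraries were 0, 3, 2 and 4, and 4 of the 7 libraries had none, with means of 4.23 and 1.59 (two-sided exact permutation test, p = 0.212). Among the erythroid genes it was the only one of 3 with the higher mean in the 4 libraries.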
